A study of Rattus norvegicus with 31 samples.

Results

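The genes described here are those of the kainate and metabotropic glutamate receptors in tail motor neurons of the adult rat. They were chosen by gene symbol, as all probe sets (groups of array probes for 1 transcript) whose only symbol in the platform annotation is Grik1 to Grik5, Grm3, Grm4, Grm5 or Grm7. The annotation gave 1 probe set each for 8 genes, 5 of kainate and 3 of metabotropic receptors, out of 9769 named genes, and Grm3 was not analysed here.

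All animals were adult male Wistar rats whose tail motor neurons had been filled with Fluoro-Gold, a tracer carried back from the muscle to the cell body, and were cut by laser from the sacral cord. Control rats were uninjured (n = 4). The others had the spinal cord transected at S2 and were examined 2 days (Spi-2, n = 6), 7 days (Spi-7, n = 5), 21 days (Spi-21, n = 8) or 60 days (Spi-60, n = 8) later, while spasticity of the tail developed. Each of the 31 Affymetrix arrays held the amplified RNA of the cells of 1 rat. Control, Spi-2 and Spi-7 arrays were made for the study and Spi-21 and Spi-60 arrays were taken from an earlier one, so that a late time point and the earlier study cannot be told apart. The cell type was checked on 9 measured of 12 listed motor neuron markers, whose mean log2 level lay between 10.3 and 10.9 on every array. That mean rests on unequal levels: Nefh, Nefl, Nefm, Prph and Calca averaged 14.1, 13.8, 13.2, 12.7 and 12.2 over all arrays. Isl1 and Isl2 averaged 5.70 and 5.62, above only 40.2% and 36.8% of probe sets, so the list as a whole was not high. Within that list Prph, the intermediate filament peripherin, was higher than in Control at all 4 times (0.59 ± 0.19 at 2 days, adjusted p = 0.0484, and 0.79 ± 0.18 at 60 days, adjusted p = 0.00291). Slc5a7, the choline transporter, was lower at 2 days (-1.18 ± 0.30, adjusted p = 0.0128), 21 days (-1.11 ± 0.29, adjusted p = 0.0095) and 60 days (-1.06 ± 0.29, adjusted p = 0.0112), and the other 7 measured markers were not called. Chat, Mnx1 and Chodl were not among the measured markers.

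Kainate receptors are glutamate-gated cation channels of 4 subunits. Grik1, Grik2 and Grik3 encode GluK1, GluK2 and GluK3, which can form channels by themselves, whereas Grik4 and Grik5 encode the high-affinity subunits GluK4 and GluK5, which need one of the former to make a working channel. Metabotropic receptors act through G proteins: mGluR5, the product of Grm5, couples through Gq to phospholipase C and the release of stored calcium, and mGluR4 and mGluR7, the products of Grm4 and Grm7, couple through Gi and Go to lower cAMP and calcium entry, often at presynaptic terminals. In motor neurons glutamate is the main excitatory transmitter, and group I receptors can raise their excitability.

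The RNA of Grik5 differed among the 5 groups, and that of Grik2 differed between 2 days and the late time points, in the opposite direction. The other 6 genes were not called in any comparison with all animals. By mean log2 level over all arrays Grik5 (5.60) lay above 36.2% of probe sets and Grik2 (5.46) above 30.2%. Grik3, Grm5, Grik1 and Grm7 lay above 27.4%, 26.1%, 15% and 5.31%, and Grik4 and Grm4 above 77.5% and 64.8%. Most members, with both called genes, thus had low signals. The start regions of Grik5 and Grik2 are shown because they belong to the only members whose groups differed. They are RefSeq sequences of the GRCr8 build, from 250 bases before to 50 after the start, written 5′ to 3′ on the strand of the gene, with the GC box core GGGCGG (either strand) in capitals.
Grik5 promoter (chr1:89794860-89795159, minus strand): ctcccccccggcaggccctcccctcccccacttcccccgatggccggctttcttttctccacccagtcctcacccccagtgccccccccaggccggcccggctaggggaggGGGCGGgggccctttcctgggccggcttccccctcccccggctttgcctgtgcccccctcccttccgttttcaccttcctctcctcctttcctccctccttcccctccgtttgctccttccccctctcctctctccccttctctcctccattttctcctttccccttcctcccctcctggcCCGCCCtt
Grik2 promoter (chr20:54415234-54415533, minus strand): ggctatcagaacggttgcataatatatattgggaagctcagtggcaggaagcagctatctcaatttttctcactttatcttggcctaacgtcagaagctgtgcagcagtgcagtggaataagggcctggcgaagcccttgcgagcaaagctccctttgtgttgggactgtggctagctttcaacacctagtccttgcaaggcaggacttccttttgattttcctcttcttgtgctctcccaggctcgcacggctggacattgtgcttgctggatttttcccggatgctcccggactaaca
The Grik5 window held 2 GC box cores, 1 on each side of the start, and 69% G and C, more than 90.3% of the 33469 promoters of this length. The Grik2 window held 0 GC box cores and 50.3% G and C, beside a median of 51.7% over all promoters. A GC box core was found in 33.1% of all promoters, and TATAAA, found in 14.2%, was in neither window. The cAMP response element TGACGTCA, found in 1.83% of promoters, was in neither window, while its 5-base part TGACG, found in 21.2%, was in that of Grik2 (all motifs on both strands). Promoters were matched for 7 of the 8 genes. These matches describe the letters of the windows and were set against no expression value.

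Grik5, the GluK5 subunit, had lower group means in uninjured animals and at 2 and 7 days than at 21 and 60 days. Of these differences, that of 21 days from the uninjured animals was not called. In log2 expression the 4 controls measured 5.27, 5.38, 5.61 and 5.62. The 6 Spi-2 animals lay between 5.25 and 5.85 with a median of 5.35, and the 5 Spi-7 animals measured 5.26, 5.31, 5.34, 5.42 and 5.48. The 8 Spi-21 animals lay between 5.49 and 5.94 (median 5.78) and the 8 Spi-60 animals between 5.56 and 6.04 (median 5.80). All 16 late animals were above all 5 Spi-7 animals, whereas the late groups overlapped with Control and with Spi-2, where replicate 1, at 5.85, stood well above the next animal.

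Grik5 was the 1 member of 8 that passed the moderated F-test of limma over the 5 groups (adjusted p = 0.00233, called at a false discovery rate of 0.02), beside 16.2% of all probe sets. Against Control its change at 60 days was 0.34 ± 0.11 (log2, SE), or 1.27-fold, with a limma adjusted p of 0.0316, and 7 of 8 animals lay above every control. It was the 1 member called in this contrast, beside 17.1% of all probe sets. At 21 days the change was 0.29 ± 0.11 (adjusted p = 0.0703), with a 95% interval of 0.06 to 0.52 and 6 of 8 animals above every control. Changes at 2 days, -0.05 ± 0.12 (adjusted p = 0.866), and at 7 days, -0.11 ± 0.12 (adjusted p = 0.734), were within the spread between animals.

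Between early and late injured groups Grik5 passed in all 4 pairs. Grik5 was higher in Spi-60 than in Spi-7 by 0.45 ± 0.10 (adjusted p = 0.0123) and in Spi-21 than in Spi-7 by 0.40 ± 0.10 (adjusted p = 0.0298). In neither of these pairs did the animals overlap, which held for 1.89% and 0.658% of all probe sets in this direction. Grik5 was the 1 member called higher in each, beside 2.58% and 2.09% of all probe sets. Against Spi-2, Grik5 was higher by 0.39 ± 0.10 at 60 days (adjusted p = 0.0107) and by 0.34 ± 0.10 at 21 days (adjusted p = 0.0221), the 1 member higher in these pairs, where 5.26% and 6.57% of all probe sets were higher. Between the 2 late groups, made in the same study, the difference was 0.05 ± 0.09 (adjusted p = 0.873), with an interval of -0.13 to 0.24. Between Spi-7 and Spi-2 it was -0.06 ± 0.11 (adjusted p = 0.999). In that last pair 0 members were called (0 at an unadjusted p under 0.05 in limma), as were 0% of all probe sets.

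The late rise of Grik5 coincided with the change of study, and its cause was not tested. The Gapdh control probe sets of the arrays also differed between groups. The Gapdh 3′ control probe set exceeded its 5′ set by a log2 value of 2.01 ± 0.33 in the controls and 3.49 ± 0.35 at 60 days (mean ± SD over animals). At 2, 7 and 21 days the excess was 2.82 ± 0.36, 3.01 ± 0.37 and 2.29 ± 0.94. Over the Spi-21 animals it ran from 1.13 to 3.54. With this difference as a covariate the 60-day change of Grik5 against Control was 0.20 (adjusted p = 0.493), that against Spi-2 was 0.32 (adjusted p = 0.0586) and that against Spi-7 was 0.40 (adjusted p = 0.0369). The covariate ran from 1.80 to 2.50 in Control and from 2.99 to 3.97 in Spi-60, with no overlap. Every 60-day change against Control with this covariate, for any gene, therefore rests on a slope shared by all groups. No covariate value was common to these 2 groups. Whether the covariate accounts for the lost call was not tested. The call against Control was also lost without Control replicate 2 or 3 or Spi-60 replicate 1, 2 or 6, with changes of 0.28 to 0.39 and adjusted p of 0.0176 to 0.14 over all animals left out in turn. The difference of Spi-21 from Spi-7 was lost without any one of Spi-7 replicates 1 to 4 or without Spi-21 replicate 1 or 2, and that from Spi-2 without Spi-2 replicate 5 or 6. Without Spi-21 replicates 1 to 3 together these differences were 0.32 (adjusted p = 0.184) and 0.26 (adjusted p = 0.144). With only the compared groups in the fit both Spi-21 calls were lost as well (adjusted p = 0.0924 and 0.0796), at the same log2 differences.

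**Figure D1:**
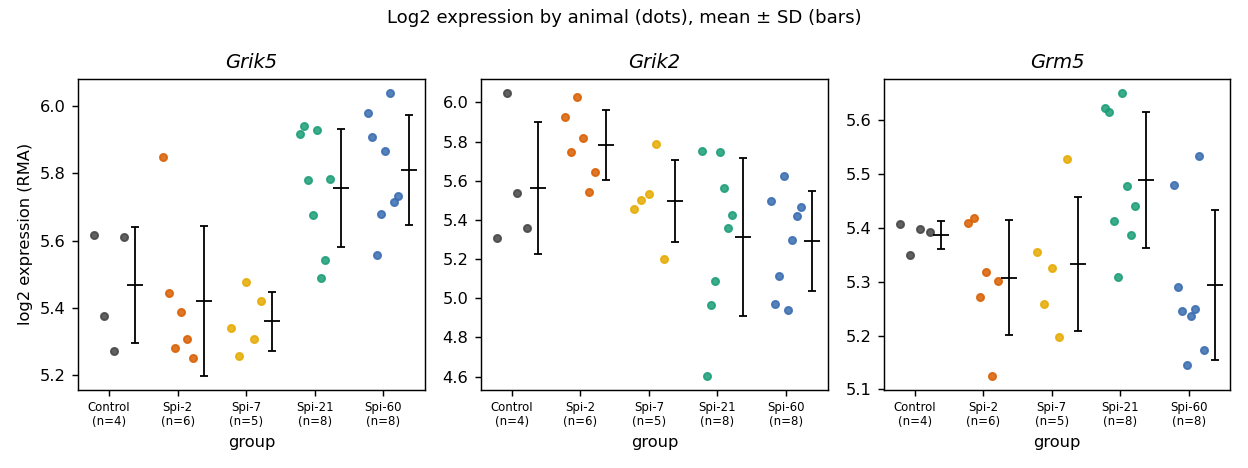
Log2 expression of Grik5, Grik2 and Grm5 (y axes, which differ between genes) in each animal (dots) of the 5 groups (x axes), with the mean and SD as bars. The Grik5 dots of Spi-21 and Spi-60 lie between 5.49 and 6.04, above all Spi-7 dots, and the lowest Grik2 dot, at 4.61, is a Spi-21 animal.

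Grik2, the GluK2 subunit, had its highest group mean at 2 days and its lowest at 60 days. The controls measured 5.31, 5.36, 5.54 and 6.05, and the Spi-2 animals lay between 5.54 and 6.03 with a median of 5.78. The Spi-7 animals measured 5.20, 5.45, 5.50, 5.53 and 5.79. In Spi-21 the range was 4.61 to 5.75 (median 5.39) and in Spi-60 4.94 to 5.62 (median 5.36). Of the 8 Spi-60 animals 7 lay below every Spi-2 animal, as did 5 of the 8 Spi-21 animals, and both late groups overlapped with Control.

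Grik2 was lower in Spi-60 than in Spi-2 by a log2 difference of -0.49 ± 0.15 (adjusted p = 0.0359), or 0.711-fold, and in Spi-21 than in Spi-2 by -0.47 ± 0.15 (adjusted p = 0.0374). These are 1 member lower in each pair, where 5.74% and 8.04% of all probe sets were lower. Against Control it was 0.22 ± 0.18 at 2 days (adjusted p = 0.519), -0.07 ± 0.19 at 7 days (adjusted p = 0.915), -0.25 ± 0.18 at 21 days (adjusted p = 0.339) and -0.27 ± 0.18 at 60 days (adjusted p = 0.304). None of these 4 passed, and the F-test over the 5 groups gave an adjusted p of 0.071. Both late differences were lost without any one of Spi-2 replicates 1 to 4, that at 60 days also without Spi-60 replicate 2, 3 or 5, and that at 21 days also without Spi-21 replicate 2, 3 or 4. The difference at 21 days was -0.35 (adjusted p = 0.144) without Spi-21 replicates 1 to 3, -0.40 (adjusted p = 0.0793) with array weights, and also not called with only the compared groups in the fit (adjusted p = 0.0922). With the 3′ covariate the 60-day difference from Spi-2 was -0.36 (adjusted p = 0.169), and the 60-day change against Control turned from -0.27 to 0.02 (adjusted p = 0.971). In the contrast with Control the covariate did not overlap between the groups.

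**Figure D2:**
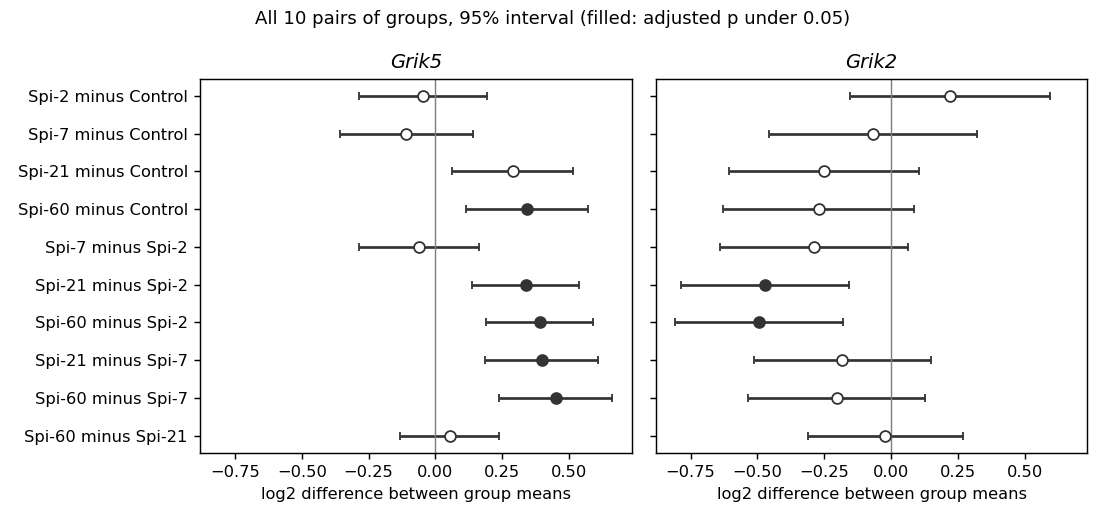
Log2 differences of group means for Grik5 and Grik2 (x axes) in all 10 pairs of groups (y axis), with 95% intervals from the limma fit and filled circles where the adjusted p was under 0.05. Grik5 has 5 filled circles, all to the right of 0, and Grik2 has 2, both to the left.

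The remaining kainate receptor genes did not pass in any of the 10 pairs of groups. Grik1, which encodes GluK1, had group means between 4.96 (Spi-60) and 5.23 (Spi-21), and its widest difference was -0.28 ± 0.10 from Spi-21 to Spi-60 (adjusted p = 0.222), within a range of 4.81 to 5.59 over the Spi-21 animals. Grik3, which encodes GluK3, varied little, with group means of 5.34 to 5.48 and changes against Control of -0.10 to 0.04. Grik4, the other high-affinity subunit gene, had group means of 7.24 to 7.50, and its changes against Control were -0.16 ± 0.16 at 2 days (adjusted p = 0.611) and 0.05 ± 0.16 at 60 days (adjusted p = 0.86). With the 3′ covariate the 60-day change of Grik4 was 0.34 (adjusted p = 0.348) and the 2-day change -0.01 (adjusted p = 0.987). In Spi-2 its animals fell apart, with replicates 2 and 4 at 6.76 and 6.75 and the other 4 between 7.38 and 7.59. The intervals of Grik4 at 60 days, -0.27 to 0.37, include the change measured for Grik5.

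Among the metabotropic receptors, Grm5 had the smallest F-test p (adjusted p = 0.159) and did not pass in any pair. The 4 controls measured 5.35, 5.39, 5.40 and 5.41, the narrowest group. The Spi-2 animals lay between 5.13 and 5.42 (median 5.31) and the Spi-7 animals measured 5.20, 5.26, 5.33, 5.36 and 5.53. The Spi-21 animals lay between 5.31 and 5.65 (median 5.46) and the Spi-60 animals between 5.14 and 5.53 (median 5.25). Of the Spi-21 animals 6 of 8 lay above every control, and of the Spi-60 animals 6 of 8 lay below every control. The difference of Spi-60 from Spi-21, within the earlier study, was -0.20 ± 0.07 with an interval of -0.34 to -0.05 (limma adjusted p = 0.246). In that comparison 0 members were called, beside 0.0697% of all probe sets, and 3 had an unadjusted p under 0.05 in limma, Grm5, Grik1 and Grm7 (-0.29 ± 0.13), all lower at 60 days. That threshold was met by 12.1% of all probe sets in this pair.

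The group III receptor genes varied most among the animals of Spi-21. Grm4 ran from 5.63 to 7.44 there, beside 6.32 to 6.68 in Control, 6.05 to 6.87 in Spi-2, 6.33 to 6.87 in Spi-7 and 6.24 to 7.02 in Spi-60. Its 3 highest Spi-21 animals were replicates 1, 2 and 3, at 7.44, 7.03 and 7.42, whose Gapdh 3′ excess was 3.29, 3.54 and 2.90, against 1.13 to 2.76 in the other 5. The 21-day change against Control was 0.16 ± 0.22 (adjusted p = 0.651) with all animals and -0.20 (adjusted p = 0.551) without those 3. At 60 days the change was 0.26 ± 0.22 (adjusted p = 0.464) and, with the 3′ covariate, -0.28 (adjusted p = 0.605). Grm7 lay between 4.37 and 5.67 in Spi-21, between 4.69 and 4.85 in Spi-2, and its change against Control was -0.22 ± 0.15 at 60 days (adjusted p = 0.35). Without Spi-21 replicates 1 to 3 its difference of Spi-60 from Spi-21 was -0.49 (adjusted p = 0.0354), a call that all animals together did not give (adjusted p = 0.346).

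**Figure D3:**
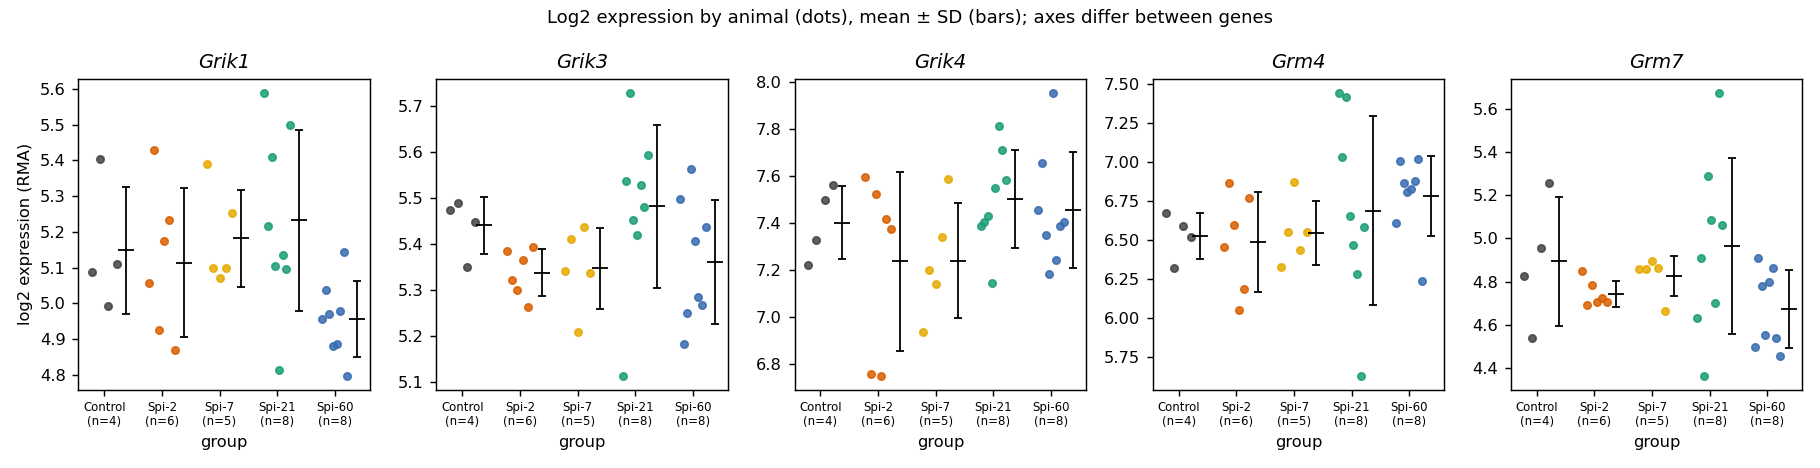
Log2 expression of Grik1, Grik3, Grik4, Grm4 and Grm7 (y axes, which differ between genes) in each animal (dots) by group (x axes), with the mean and SD as bars. The groups overlap for every gene, and Grm4 and Grm7 spread widest in Spi-21.

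Taking the 8 genes at each day against the same 4 controls, 0 were called at 2 days (background 8.87% of probe sets), 0 at 7 days (2.59%), 0 at 21 days (16.6%) and 1 at 60 days (17.1%). At an unadjusted p under 0.05 in limma the counts were 0, 0, 1 and 1, beside 22.9%, 15.6%, 31.8% and 30.9% of all probe sets. The median change of the 8 genes was -0.06, -0.07, 0.09 and -0.09 in this order, and over all probe sets it was between 0.00 and 0.01 in size. Intervals of single genes reached up to 0.47, 0.49, 0.45 and 0.45 to either side, so that changes of this size were not detectable for the most variable member. At 60 days the intervals of the 7 members without a call lay between -0.63 and 0.70. Among days 0, 2 and 7, within the newer arrays, the F-test called 0 of 8 members (0 at an unadjusted p under 0.05 in limma), beside 3.01% of all probe sets. Ranked by mean, none of the 32 pairs of groups next to each other in a gene's order differed. These pairs were picked as neighbours from the same values, which favours small differences. The count is therefore no result about the genes. The order for Grik5 was Spi-7, Spi-2, Control, Spi-21 and Spi-60 from low to high, and that for Grik2 was Spi-60, Spi-21, Spi-7, Control and Spi-2.

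**Figure D4:**
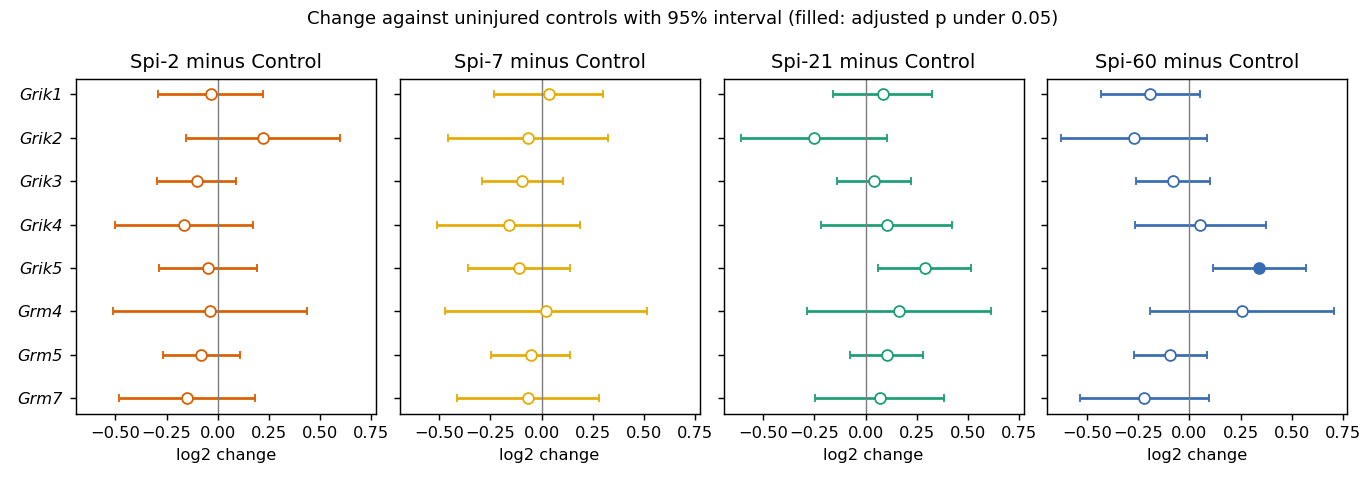
Log2 change of the 8 receptor genes (y axis) against Control at each of the 4 times (panels, x axes), with 95% intervals from the limma fit and a filled circle where the adjusted p was under 0.05. The 1 filled circle is Grik5 at 60 days, at 0.34.

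Over the 31 arrays the 3 genes most like Grik5 in their log2 values were Gtpbp6, with a Pearson r of 0.821, Clptm1, with 0.814, and Fbxo2, with 0.814. These values describe arrays that share their normalization and their groups.

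Genes that work with the receptors were read from lists of partners. Beside the counts of these lists and of the marker lists, 8.87%, 2.59%, 16.6% and 17.1% of all probe sets were called against Control. These shares are for 2, 7, 21 and 60 days and either direction. They are a rough guide, as the lists take the probe set with the highest mean per gene. Of the kainate receptor partners, auxiliary and scaffold proteins such as Neto1, Neto2 and Dlg4, 11 of 14 were measured and 0 were called at any day. Neto1, an auxiliary subunit that slows kainate receptor currents, measured -0.71 ± 0.26 at 21 days (adjusted p = 0.0523) and -0.67 ± 0.26 at 60 days (adjusted p = 0.0685). Of the genes on the path of group I receptors 19 of 28 were measured, of which 1 was higher and 2 were lower at 2 and at 7 days, and 2 higher and 3 lower at 21 and at 60 days. Plcb4, a phospholipase C beta that Gq activates, was lower by -0.78 ± 0.19 at 2 days (adjusted p = 0.00703) and -1.03 ± 0.18 at 21 days (adjusted p = 0.000435). Itpr3, a channel that releases stored calcium, was higher by 0.78 ± 0.20 at 2 days (adjusted p = 0.0133) and 0.98 ± 0.19 at 60 days (adjusted p = 0.000904).

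Rgs4, which shortens the action of Gq and Gi, was lower by -1.16 ± 0.30 at 2 days (adjusted p = 0.0137) and -1.09 ± 0.29 at 60 days (adjusted p = 0.00904). Prkcb, a protein kinase C, was lower by -1.03 ± 0.27 at 60 days (adjusted p = 0.00883) and not called at 2 days, at -0.32 ± 0.29. The fifth called gene was Plcb3 at 21 days (0.32 ± 0.11, higher) and Plcb2 at 60 days (0.35 ± 0.13, higher).

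Of the genes on the path of group II and III receptors 16 of 26 were measured. At 2 days 1 was lower, the calcium channel gene Cacna1a (-0.36 ± 0.11), and at 7 days 0 were called. At 21 days 5 were higher and 2 lower, and at 60 days 4 higher and 1 lower. Those higher at both late times were the G protein subunit genes Gng3 (0.70 ± 0.15 at 60 days, adjusted p = 0.00253), Gnb2 (0.70 ± 0.18, adjusted p = 0.00645) and Gnai2 (0.58 ± 0.20, adjusted p = 0.0404), and Rgs14 (0.58 ± 0.11, adjusted p = 0.000806), a regulator of Gi signalling. Cacna1b, the N-type calcium channel, was higher at 21 days by 0.47 ± 0.13. Adcy8, an adenylyl cyclase, was lower at both late times (-0.52 ± 0.14 and -0.40 ± 0.14), and Kcnj6, a potassium channel that G proteins open, at 21 days (-0.45 ± 0.14).

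**Figure D5:**
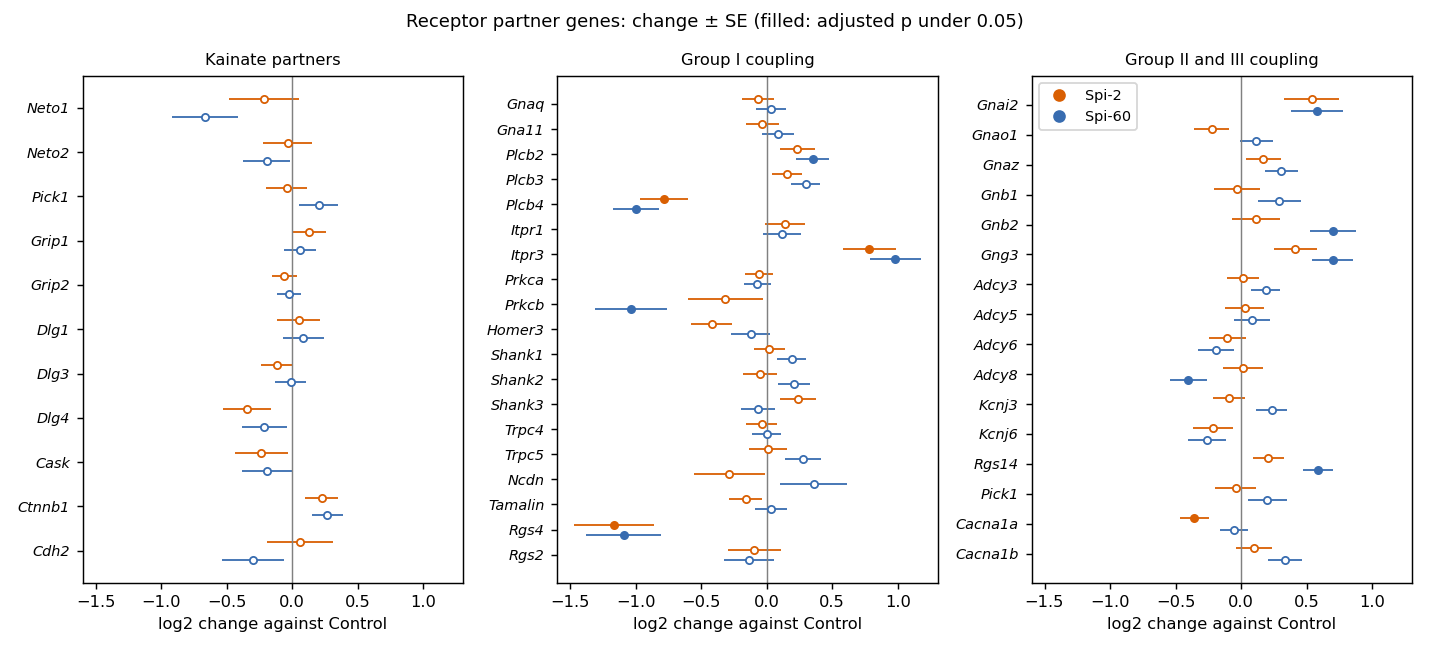
Log2 change against Control (x axes) of the measured genes of 3 partner lists (y axes) at 2 days (orange) and 60 days (blue), with the SE as bars and filled circles where the adjusted p was under 0.05. The kainate partner panel holds no filled circle, and Plcb4, Itpr3 and Rgs4 are filled at both times.

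Of the genes of glutamate supply and clearance 11 of 14 were measured, and 0 were higher and 3, 1, 4 and 2 lower at 2, 7, 21 and 60 days. Slc17a6, the vesicular glutamate transporter of excitatory interneurons, was lower by -1.44 ± 0.44 at 2 days (adjusted p = 0.0342) and -1.76 ± 0.42 at 60 days (adjusted p = 0.00411). Slc38a2, a glutamine transporter, was lower by -0.94 ± 0.25 at 60 days (adjusted p = 0.0107), and Gls2, a glutaminase, by -0.78 ± 0.19 at 2 days (adjusted p = 0.0091). Slc1a3, the glutamate transporter of astrocytes, was lower at 21 days (-0.94 ± 0.31, adjusted p = 0.0338). Of the other metabotropic receptors Grm2 and Grm8 were measured and not called. Of 9 measured AMPA and NMDA receptor genes, Gria4 was lower at 21 days (-0.64 ± 0.21, adjusted p = 0.0301) and Grin1, the obligatory NMDA receptor subunit, was higher at 60 days (0.58 ± 0.14, adjusted p = 0.00583).

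Markers of other cells in the section also moved with the groups. The mean log2 level of 5 measured of 6 interneuron markers was 6.31 to 7.91 in the controls. It was 5.90 to 6.86, 5.81 to 7.05, 5.50 to 6.40 and 5.75 to 6.55 at 2, 7, 21 and 60 days. Slc32a1 (-1.35 ± 0.42, adjusted p = 0.0372) and Slc17a6 of that list were lower at 2 days, and 0 genes were called at 7 days. Gad1, Slc32a1 and Slc17a6 were lower at both late times, whereas Gad2 and Slc6a5 were not called at any day. The mean log2 level of 9 measured of 10 microglial markers was 5.52 to 5.78 in Control, 6.31 to 7.15 in Spi-2 and 5.85 to 7.20 in Spi-60. Of that list 4, 1, 2 and 3 genes were higher at 2, 7, 21 and 60 days and 0 were lower, with Csf1r, the receptor of a microglial growth factor, at 2.02 ± 0.40 at 2 days (adjusted p = 0.00174) and Aif1, C1qc and Cd68 also higher then. The astrocyte list (8 of 10 measured) lay between 8.16 and 9.38 over all arrays, and its Gfap was higher by 2.45 ± 0.42 at 2 days (adjusted p = 0.000461) and 1.83 ± 0.40 at 60 days (adjusted p = 0.00211). The list as a whole did not follow Gfap: its median change was -0.39 at 2 days and 0.07 at 60 days, and Aldoc, the aldolase of astrocytes, was lower by -0.91 ± 0.18 at 2 days (adjusted p = 0.00182) and -0.82 ± 0.19 at 7 days (adjusted p = 0.0133). The oligodendrocyte list (9 of 10 measured) lay between 7.22 and 8.34, and 1, 1, 4 and 1 of its genes were lower at 2, 7, 21 and 60 days with 0 higher. Mbp, myelin basic protein, was lower by -2.14 ± 0.31 at 2 days (adjusted p = 6.12e-05), -1.66 ± 0.32 at 7 days (adjusted p = 0.00351) and -1.28 ± 0.29 at 21 days (adjusted p = 0.00414). Mog, Olig1 and Cldn11 were lower at 21 days, by -0.96 ± 0.23, -0.96 ± 0.23 and -1.14 ± 0.27, and Mog again at 60 days (-0.74 ± 0.23, adjusted p = 0.0282). On this log2 scale no value marks the absence of a transcript. The part of these cells in the receptor and partner values was not tested, and in such samples fewer cells of a type and less RNA per cell cannot be told apart.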

How the data were processed

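The authors left out probe sets not in Ensembl's annotation of the rat chip, compensated the background, normalized probe intensities by quantiles, computed RMA summaries (the submitters' notes name RMA with no version) and compensated and normalized the summaries again. The deposited table holds these log2 values for 12919 probe sets, from 0 to 14.37, with array medians of 5.95 to 6.10 and correlations between arrays of 0.875 to 0.989. Raw arrays were not used here, and the number of arrays per group limits the precision.

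After 6 control sets were left out, 1 mean per group was fitted to all 31 arrays and 12913 probe sets in limma 3.58.1 (R 4.3.3) with moderated variances and no covariate. Of these sets, 11880 match 1 symbol, 320 several and 713 none. All p-values are two-sided where a direction exists and adjusted over all probe sets (Benjamini-Hochberg). The F-test was called at 0.02 and contrasts at 0.05. Motifs and checks of single animals used Python 3.11.15. Lists take the probe set with the highest mean per gene.

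Per-animal values are given for members called in the F-test and for the next smallest p of each receptor kind. The 3 genes with the highest correlation are named for called members, and called genes of the partner lists, up to 4 per list and day by p. Genes beyond 4, and the genes named from the marker lists, were named after their values were seen. The endothelial list (1 of 5 measured) and the precursor list (2 of 2) gave 0 called genes. Members and lists were chosen with earlier results of these data known. The fits were tested on simulated data. Alternatives were a further quantile normalization, a fit of the compared groups alone, array weights, a variance trend with robust prior, a filter at a mean of 5, the replicate number as a block, the Gapdh 3′ covariate, leaving out Spi-21 replicates 1 to 3, and leaving out each animal.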

Additional observations from a re-analysis of the deposited data

Results flagged for a closer look

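Grik5 in Spi-2 replicate 1, at 5.85 in log2 expression, stood apart from the other 5 animals of its group, the nearest of which was at 5.44. Grm7 in Spi-7 replicate 5, at 4.66, stood apart from the nearest of the other 4, at 4.86. These were 2 of 40 groups of 4 to 8 animals looked at, and chance alone gives such an animal in about 1 in 20 groups.

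Changes against control differed between times after injury for 2 genes, by the limma contrast between the injured groups. For Grik5 the 21-day change exceeded that at 2 days by 0.34 and that at 7 days by 0.40, and the 60-day change exceeded them by 0.39 and 0.45. For Grik2 the difference from 2 days was -0.47 at 21 days and -0.49 at 60 days. In all 6 of these pairs the later group came from the earlier study.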

How the results depend on the processing

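The count of receptor genes called was 1 in the F-test over the 5 groups and 0 at 2 days, at 7 days and among days 0, 2 and 7 under all alternatives that could be run. At 21 days it went from 0 to 1 (Grik5) with array weights (0.34, adjusted p = 0.0281) and with the replicate block (0.33, adjusted p = 0.0461), and was 0 to 1 with single animals left out. At 60 days it went from 1 to 0 with the 3′ covariate, and was 0 to 1 with single animals left out. Calls between injured groups went from 6 to 3 with the compared groups fitted alone (4 to 6 with single animals left out), and without Spi-21 replicates 1 to 3 the 3 calls that involve Spi-21 were lost and 1 was added (Grm7, -0.49). The causes were not tested. Grik5 kept its F-test call in 31 of 31 fits without 1 animal (adjusted p 0.000441 to 0.00527) and its difference of Spi-60 from Spi-7 in 31 of 31. Of 244 recomputed changes without a call 15 took the other sign, and of 56 with a call 0 did. Animals of the same number showed no sign of pairing. Over 51 such pairs deviations from the group means had a mean correlation of -0.0276 (11 over 0.1). Over 327 pairs of different number it was 0.00505 (78 over 0.1). The replicate block moved no other count. Grm7 was left out by the filter, an F-test has no fit of compared groups alone, and days 0, 2 and 7 hold no Spi-21 array.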
